A study of Homo sapiens with 7 samples.

Results

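The regions described here are the flanks of the human centromere gaps, the stretches of chromosome arm that end where the array has no more positions before the centromere. On the 180k array design, the largest gap between consecutive array positions was located on each of 17 autosomes, and the flanks were the positions within 3 Mb of either side of it. On chromosomes 13, 14, 15, 21 and 22, whose short arms carry almost no positions, the flank was the first 3 Mb of positions. This gave 39 flanks with 5529 of the 161223 array positions on chromosomes 1 to 22, or 3.43%. The choice used positions alone and no measured signal. A flank is named by its chromosome and arm, so that 3q is the side of the chromosome 3 gap toward the long arm.

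Growing cells had taken up the thymidine analogue BrdU at 50 µM for 2 h, and 80000 cells were sorted by DNA content into fractions from early and from late S phase. Newly made DNA was pulled down with a BrdU antibody, amplified, labelled with Cy3 (early) or Cy5 (late), and both fractions were hybridised to a single array. The 6 arrays of the 180k design held K562, a chronic myeloid leukaemia line, after a new (n = 1) or an old (n = 1) cell sorting method, and U2OS, an osteosarcoma line, after manual (n = 2) or automated (n = 2) handling. A K562 array labelled 44k (n = 1) carried 1795 positions in the flanks. The labels do not say which step was automated, and nothing in them says that arrays came from separate cultures, so the p-values below measure only the spread between these arrays, which may be technical.

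Chromosomes replicate in large domains, each with a characteristic time in S phase. Gene-rich, open chromatin generally replicates early, and condensed heterochromatin generally replicates late. Centromeres are built on long arrays of satellite repeats that unique array positions cannot cover, and the heterochromatin around them, marked by histone H3 lysine 9 methylation, is a textbook example of late-replicating DNA.

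The gaps themselves ranged from 3.20 Mb on chromosome 17 to 21.3 Mb on chromosome 1, with a median of 3.58 Mb. The flanks were covered nearly as densely as the rest of the autosomes, at a median spacing of 13.3 kb against 13.03 kb. Coverage was uneven between them. The flank 17q held 235 positions, whereas 9p held 5, 9q held 6 and 1q held 44, most of them over 2 Mb from the gap. On chromosome 21 the flank held 33 positions, all on the short-arm side of that chromosome's own largest gap, although the figures label it 21q. Mean GC content of the array sequences was 36.1% in the flanks and 36.5% elsewhere, and 67.7% of flank positions carried a gene name against 73.0% elsewhere.

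Because each value belongs to a short unique sequence, the sequences at the inner edge of the 3 latest and the 3 earliest flanks in U2OS are shown first. They are printed 5′ to 3′ in lower case as the array design gives them, with CpG dinucleotides in capitals. The design does not state their strand.
3q edge, A_16_P36362492: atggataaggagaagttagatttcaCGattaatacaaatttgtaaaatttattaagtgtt
3p edge, A_16_P00760834: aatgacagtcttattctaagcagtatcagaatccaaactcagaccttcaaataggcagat
12q edge, A_16_P39639792: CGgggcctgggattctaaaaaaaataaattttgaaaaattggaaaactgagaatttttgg
1q edge, A_18_P10303803: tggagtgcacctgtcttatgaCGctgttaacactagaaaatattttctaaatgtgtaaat
17q edge, A_14_P118838: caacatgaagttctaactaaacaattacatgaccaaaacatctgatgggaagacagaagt
20q edge, A_16_P41303150: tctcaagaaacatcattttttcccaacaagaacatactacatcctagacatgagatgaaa
They lie, on build hg19, at chr3:93551618-93551677, chr3:90282056-90282115, chr12:38475706-38475765, chr1:142617943-142618002, chr17:25403446-25403505 and chr20:29638363-29638422. Each is 60 bases long and GC-poor, from 23.3% at 3q to 36.7% at 3p, and 3 of the 6 hold 1 CpG. No sequence in the flanks was shared with another array position. All values below are log2(early/late) relative to the array's median position over chromosomes 1 to 22 and X, so positive means earlier than that median. The 3q edge read -1.44, -2.40, -2.32 and -2.13 on the U2OS arrays (manual 1, manual 2, automated 1, automated 2), against 0.19 and 0.29 on the K562 arrays (new, old sorting). The 20q edge read -1.51, -2.23, -2.65 and -2.44 in U2OS and -2.04 and -1.81 in K562, although the flank behind it was among the earliest. The 17q edge was above 0 on all 6 arrays, from 0.05 to 1.38.

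The tandem pentamer of classical satellite repeats was searched in all array sequences. A sequence counted when it held GGAAT on either strand, and separately when it held GGAAT directly followed by itself on either strand, which is also counted under the first. GGAAT occurred in 13.5% of flank sequences and in 14.8% of those in the rest of the autosomes, and the tandem pair in 2 of 5529 flank sequences (0.0362%) against 33 of 155694 elsewhere (0.0212%). CpG was present in 32.6% and 34.1%. A match is a description of the letters only.

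Over all flank positions the timing was slightly late. In K562 their median was -0.19 after new and -0.06 after old sorting. In U2OS it was -0.08 and -0.08 with manual handling, and -0.29 and -0.36 with automated handling. The medians of the other autosomal positions lay between 0.03 and 0.06 on the 6 arrays. The flank median was thus below the rest on every array, with a difference of -0.24 ± 0.16 (SD, n = 4) in U2OS and of -0.25 and -0.09 on the K562 arrays. By means in place of medians the difference was smaller, at -0.19 ± 0.09 (SD, n = 4) in U2OS and -0.08 and -0.02 in K562. Without background correction the differences were -0.12 in U2OS and -0.052 in K562 (means over arrays), and for positions bright in both colours -0.11 and -0.10. Single positions had an SD of 1.62 within the flanks in U2OS (mean over 4 arrays) and of 1.58 elsewhere. The share of flank positions below 0 ran from 51.3% to 56.2% over the 6 arrays.

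The level depended on the distance from the gap. Within the innermost 0.25 Mb, which held 357 positions, the median was -1.53 and -0.64 in K562 (new, old sorting). It was -1.15 and -1.45 in U2OS with manual and -1.61 and -1.57 with automated handling. All 6 arrays were at their lowest there among the steps of 0.25 Mb out to 6 Mb. Between 0.75 and 1 Mb the medians had come up to between -1.07 and -0.22, and between 1.75 and 2 Mb all 6 were above 0, from 0.17 to 0.56. With every flank counted equally, the mean of the flank means from 1.75 to 2 Mb was still below 0 on all 6 arrays, from -0.69 to -0.18. At the outer limit the positions just inside, from 2.75 to 3 Mb, had medians from -0.31 to 0.34, and those just outside, from 3 to 3.25 Mb, from -0.37 to 0.20. The innermost 1 Mb lay below the stretch from 2 to 3 Mb on all 6 arrays, with a difference of medians of -1.31 ± 0.13 (SD, n = 4) in U2OS, and of -1.31 and -0.52 on the new-sorting and old-sorting K562 arrays.

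**Figure D1:**
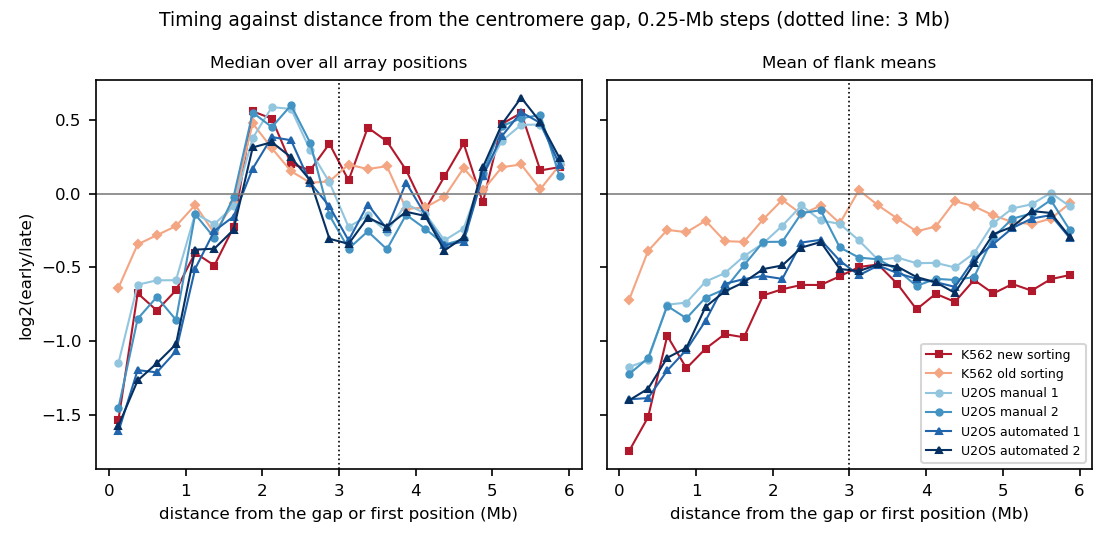
Timing as log2(early/late) (vertical axes) against distance from the gap or first position in Mb (horizontal axes), one line per array, in steps of 0.25 Mb; left, the median over all array positions of a step, right, the mean over flanks of each flank's own mean. Every line starts at its lowest point beside the gap, between -1.61 and -0.64 in the left panel, and all left lines are above 0 between 1.75 and 2 Mb, whereas the right lines lie lower than the left ones from 1 to 3 Mb.

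In the innermost 0.25 Mb both colours were shifted. Against the rest of the autosomes, the early (green) processed signal of the innermost 0.25 Mb was lower on all 6 arrays, with log2 differences from -0.94 to -0.27, and the late (red) signal was higher by 0.19 to 0.71. The summed signal of both colours moved little, from -0.08 to 0.27. Positions not well above background in either colour made up from 1.40% to 22.97% of the innermost stretch over the 6 arrays, and from 0.428% to 18.8% of the rest of the autosomes. Over the innermost 1 Mb the late signal was higher than from 2 to 3 Mb on every array except the old-sorting K562 one. On that array the late signal was -0.10 and 0.06 against the rest, and the early signal -0.33 and 0.14 (inner, outer, log2 scale). With only positions well above background in both colours the inner-to-outer difference over the 6 arrays went from -1.18 to -0.82, and with every flank counted equally to -0.78. With normexp background correction (offset 50) in place of the deposited ratio it was -0.63. The innermost sequences were also the poorest in GC (35.0%) and in named genes (47.3%), and the part of base composition in the gradient was not tested.

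Counted in windows of 100 kb with at least 3 positions measured on all 6 arrays, 771 windows lay in the flanks. In U2OS, 372 of them (48.2%) were called late, with a mean below 0 at a limma Benjamini-Hochberg adjusted p under 0.05, against a background of 43% of all 23501 windows. Early calls took 280 windows (36.3%), against 41%. In K562, 347 windows (45.0%) were late, against 42.8%, and 275 (35.7%) early, against 39.5%. Over the whole 3 Mb these shares were close to the background. The innermost 1 Mb differed more, with 131 of 211 windows late in U2OS (62.1%) and 114 in K562 (54.0%), and 48 (22.7%) and 59 (28.0%) early. From 2 to 3 Mb, 104 of 281 windows were late (37.0%) and 123 early (43.8%) in U2OS. Calls of both lines coincided in most windows: 281 were late in both and 222 early in both, whereas 22 were early in U2OS and late in K562 and 16 the reverse. The shares of such joint calls over all windows are not given. Called or not, the line means had opposite signs in 17.5% of flank windows and 18.2% of the other autosomal windows, so the flanks did not stand out.

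The 3 latest windows in U2OS lay on 3 chromosomes and rested on few positions: 3, 6 and 4 in the order given here. At chr5:45000001-45100000, 1.05 Mb from the 5p side of its gap, the 4 U2OS arrays read -2.62, -2.97, -3.76 and -3.87 and the K562 arrays -3.53 and -1.25. At chr11:56400001-56500000, in a cluster of olfactory receptor genes, which encode odorant receptors of nasal sensory neurons, they read -2.91, -3.23, -3.21 and -2.88, and -3.14 and -1.61. At chr12:38600001-38700000, where the array names no gene, they read -2.39, -3.20, -3.45 and -2.77, and -3.68 and -1.18. All 3 were below 0 on all 6 arrays (adjusted p from 7.61e-05 to 0.000183 in U2OS).

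The 3 earliest windows held named genes. At chr20:32500001-32600000, with RALY, an RNA-binding protein gene, U2OS read 2.23, 2.17, 1.41 and 1.65 and K562 1.89 and 1.61. At chr17:27300001-27400000, with SEZ6 and PIPOX, U2OS read 1.48, 1.88, 2.15 and 1.89 and K562 1.72 and 1.69. At chr8:41700001-41800000, with ANK1, which encodes the ankyrin of the red-cell membrane skeleton, U2OS read 2.03, 2.02, 1.67 and 1.63 and K562 1.68 and 1.28. These lay 1.65 to 2.91 Mb from their gaps.

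The flanks differed widely from each other. Of 39 flanks, 25 had a mean below 0 on all 4 U2OS arrays, 11 above 0 and 3 on both sides, and 21 were below and 9 above 0 on all 6 arrays. The mean of the other autosomal positions was itself below 0, from -0.20 to -0.07 in U2OS and at -0.44 and -0.02 in K562. Regions of like size elsewhere were not counted, so these numbers have no background beside them. Flank membership accounted for 55.2% of the variance of window values in U2OS and 39.8% in K562. The SD between the 4 U2OS arrays had a median of 0.17 over flanks. The order in U2OS ran without sharp steps, since 34 of 38 neighbours overlapped in the ranges of their arrays.

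**Figure D2:**
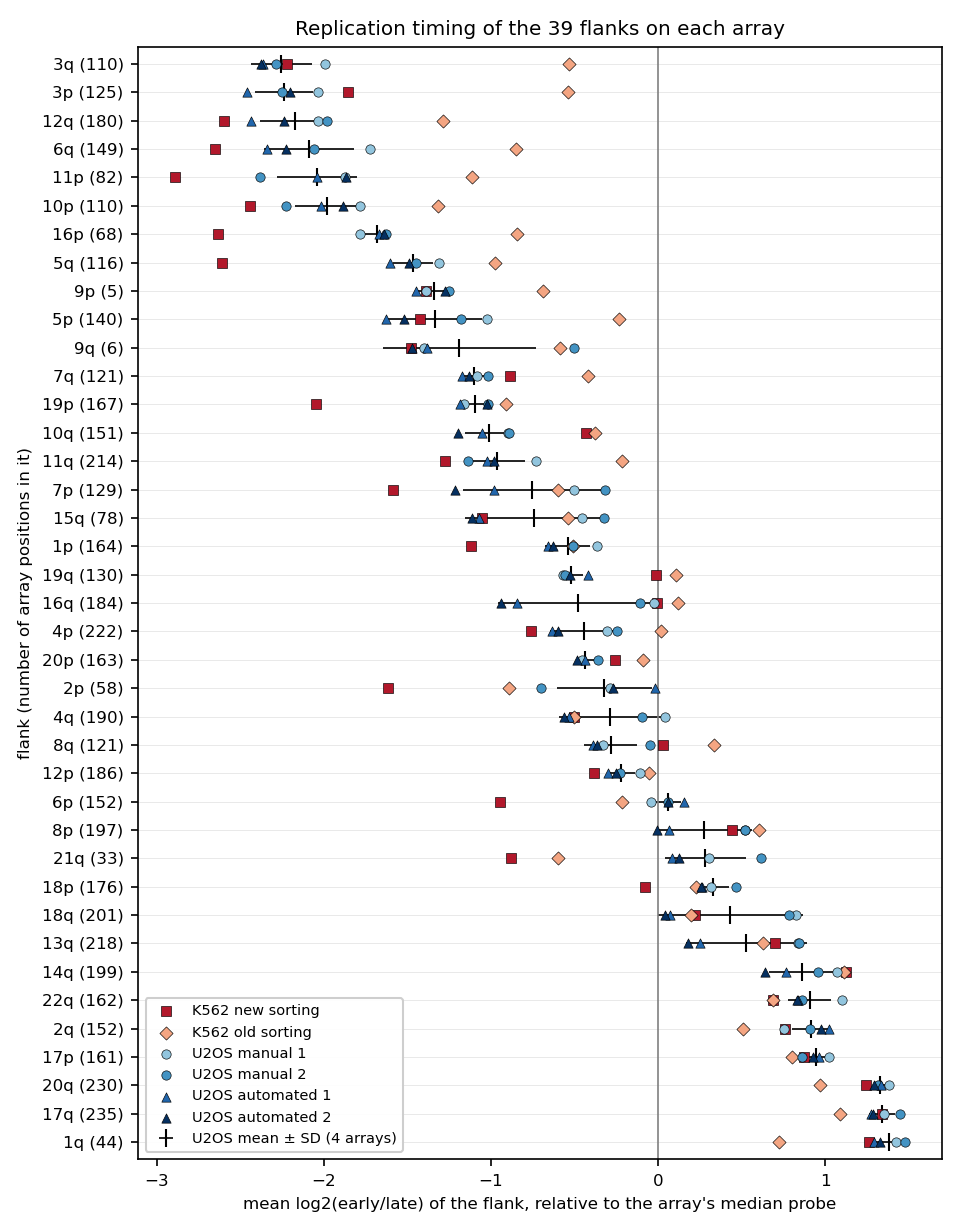
Mean log2(early/late) (horizontal axis) of each of the 39 flanks (vertical axis, with the number of array positions in brackets), ordered by the U2OS mean; points are single arrays and the bar is the U2OS mean ± SD of 4 arrays. Flanks run from -2.25 at 3q to 1.38 at 1q in U2OS, and the old-sorting K562 points lie nearer to 0 than the new-sorting ones in the late flanks.

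Both sides of the chromosome 3 gap were the latest flanks. The flank 3q (110 positions) read -1.99, -2.28, -2.36 and -2.38 in U2OS, -2.25 ± 0.18 (SD, n = 4), and -2.22 and -0.53 on the new-sorting and old-sorting K562 arrays. The flank 3p (125 positions) read -2.04, -2.25, -2.46 and -2.20, or -2.24 ± 0.17 (SD, n = 4), and -1.86 and -0.54 in K562. All 15 windows of 3q and all 18 of 3p were called late in U2OS. EPHA3, an ephrin receptor kinase gene that spans 29 array positions of 3p, read -2.23, -2.50, -2.64 and -2.24 in U2OS and -3.13 and -0.46 in K562.

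The flank 12q (180 positions) was as late in U2OS, at -2.17 ± 0.21 (SD, n = 4), and all its 27 windows were called late. Its genes included CNTN1, a neural cell adhesion gene, at -2.19 ± 0.17 (SD, n = 4) in U2OS and -3.21 and -1.27 in K562, and CPNE8, at -2.43 ± 0.14. KIF21A, a kinesin motor gene in the same flank, was at -1.95 ± 0.57 in U2OS but at -0.43 and -0.46 in K562. The opposite side of that gap, 12p, was at -0.22 ± 0.08 (SD, n = 4), so 12q minus 12p was -1.95.

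At the early end in U2OS stood 1q, 17q and 20q. The flank 1q (44 positions, 5 windows) read 1.42, 1.48, 1.29 and 1.33 in U2OS and 1.26 and 0.72 in K562. Most of its positions lay over 2 Mb from the gap, so its mean describes the outer stretch. Its edge position was late, at -1.93, -1.31, -1.53 and -1.67 in U2OS and -1.78 and -1.42 in K562. The flank 17q (235 positions) read 1.35, 1.45, 1.28 and 1.29, and 1.34 and 1.09, and all its 30 windows were called early in U2OS. The flank 20q (230 positions) read 1.38, 1.31, 1.33 and 1.29, and 1.24 and 0.97. No window of these 3 flanks was called late in either line. Their genes included PDE4DIP at 1q (1.57 ± 0.19 in U2OS), SSH2, a slingshot phosphatase gene at 17q (1.41 ± 0.32), and CBFA2T2, a transcriptional corepressor gene at 20q (1.52 ± 0.06, SD, n = 4 each).

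The 17 gaps with members on both sides allowed the arms to be set against each other. In U2OS, 12 of 17 had the same sign on both sides. The means of the sides of the chromosome 3 gap differed by 0.01, whereas 6q was later than 6p by 2.14 and 1p later than 1q by 1.92. The 1q mean rests mostly on positions over 2 Mb from its gap, so these last sides are not covered alike. As a description over 17 gaps of the same arrays, the p and q means had a Pearson r of 0.48 in U2OS and 0.26 in K562. Over all 39 flanks, which share arrays and differ in number of positions, the U2OS mean had an r of 0.37 and a Spearman rho of 0.60 with GC content, and an r of 0.46 with the share of positions in named genes. The K562 and U2OS means had an r of 0.91.

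The flanks of chromosomes 13, 14, 15, 21 and 22 together were early, unlike the rest. Their 690 positions had medians of 0.95 and 0.87 in K562, and of 0.91 and 0.76 (manual) and 0.63 and 0.58 (automated) in U2OS. The other 4839 positions had medians of -0.47 and -0.19, -0.29 and -0.31, and -0.50 and -0.56. Leaving these 5 chromosomes out moved the flank-minus-rest difference from -0.24 to -0.46 in U2OS and from -0.17 to -0.38 in K562. The 5 chromosomes did not behave alike. The flank 22q was at 0.91 ± 0.13 (SD, n = 4) in U2OS and 0.69 and 0.69 in K562, 14q at 0.86 ± 0.19 and 1.12 and 1.11, and 13q at 0.53 ± 0.36 and 0.70 and 0.63. By contrast 15q was late, at -0.74 ± 0.41 and -1.05 and -0.54, with 10 of 13 windows called late in each line. The short-arm flank of chromosome 21 was at 0.28 ± 0.24 in U2OS but at -0.88 and -0.60 in K562. Its positions were also among the brightest, with a summed signal 0.97 (U2OS) and 2.14 (K562) above the rest on the log2 scale, and the part of extra copies of its sequence was not tested.

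The profile within a flank was rarely flat. Windows called late and windows called early stood side by side in 24 flanks in U2OS, 10 flanks held only late calls, 3 only early ones and 2 none. Of the 30 flanks with at least 3 positions in the innermost 0.25 Mb, that stretch was below 0 on all 4 U2OS arrays in 24 and above 0 in 4, and on all 6 arrays in 23 and 2. It also lay below the flank's own stretch from 2 to 3 Mb on all 4 U2OS arrays in 19 flanks and above it in 2, in K562 on both arrays in 16 and 4, and on all 6 arrays in 13 and 1.

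**Figure D3:**
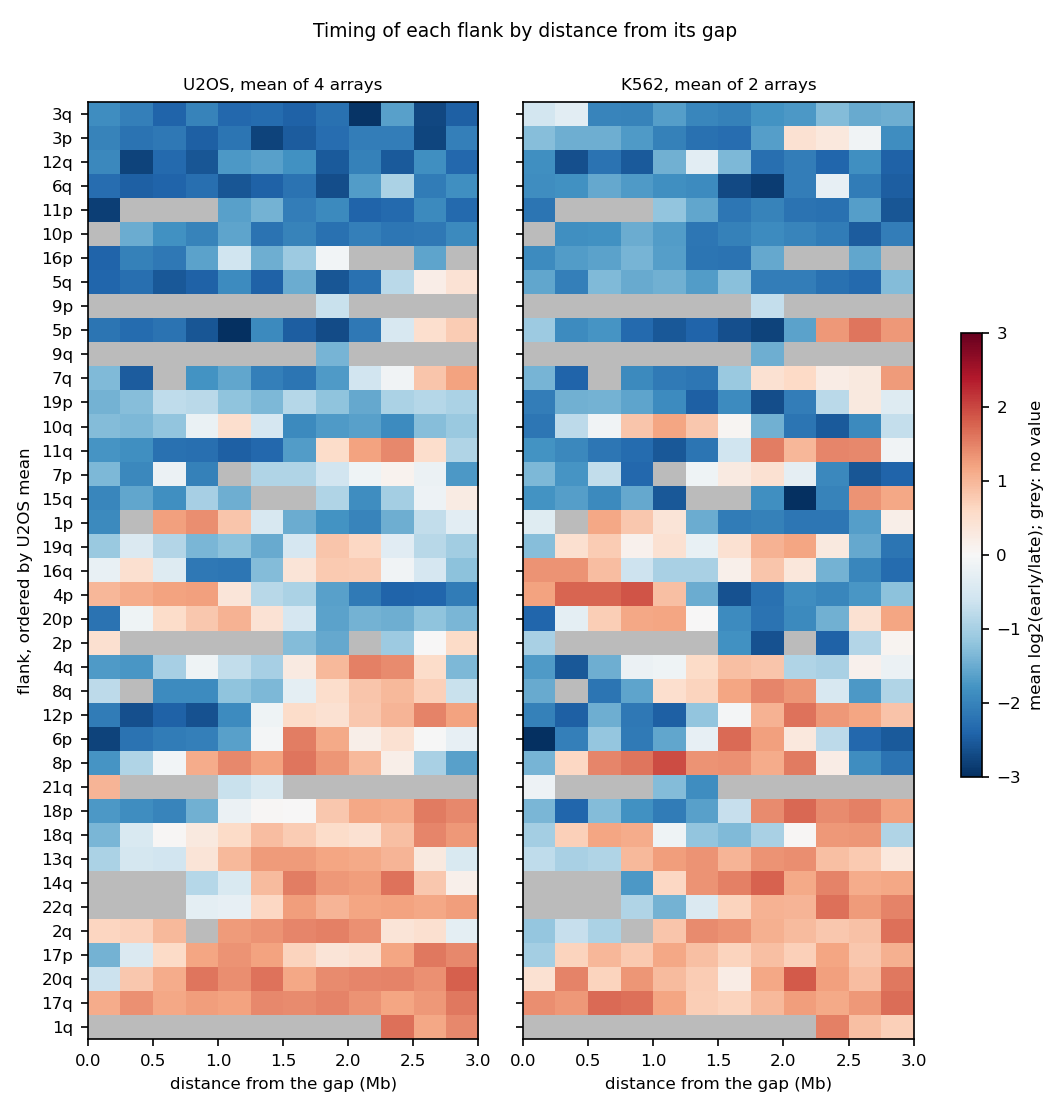
Mean log2(early/late) by colour in each flank (rows, ordered by U2OS mean) and 0.25-Mb step of distance from the gap (columns, gap at left), for U2OS (left, 4 arrays) and K562 (right, 2 arrays); grey marks steps with fewer than 2 positions. Rows such as 12p and 18p turn from late beside the gap to early further out, 4p runs the opposite way, and 3q, 3p and 12q stay late in U2OS over the whole 3 Mb.

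Among these 30 flanks, 12p showed the largest rise in U2OS. Its innermost 12 positions read -1.85, -2.41, -1.99 and -2.11 in U2OS and -2.74 and -1.32 in K562. From 2 to 3 Mb it read 1.16, 1.28, 1.11 and 1.11, and 1.23 and 1.19. All 6 arrays thus crossed 0 within this flank. The flank 18p rose likewise, from -1.73 ± 0.30 (SD, n = 4) to 1.31 in U2OS, and from -2.23 and -0.51 to 1.499 and 1.46 in K562. The flank 4p ran the other way. Beside the gap it read 0.91, 1.32, 0.96 and 0.78 in U2OS and 1.31 and 1.099 in K562, and in the outer stretch -2.10, -2.24, -2.30 and -2.24, and -2.60 and -0.82. The flank 17q was early up to the gap on all 6 arrays, at 1.12, 0.92, 1.21, 1.23, 1.39 and 1.41 over its innermost 9 positions.

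The array names 945 genes in the flanks, of which 923 had a value on all 6 arrays and 573 matched a current RefSeq symbol or synonym. A gene's value is the mean of its flank positions. In U2OS, 319 of the 923 genes (34.6%) were below 0 on all 4 arrays and 410 (44.4%) above, with a median of 0.35. Among 22077 genes of the rest of the autosomes the shares were 21.3% and 56.9% and the median 0.81.

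Zinc finger genes, most of which encode DNA-binding repressors and sit in clusters near several gaps, were the largest list. Of 49 in the flanks, 35 (71.4%) were below 0 on all 4 U2OS arrays and 6 (12.2%) above, with a median of -1.04 in U2OS and -0.70 in K562. Of the 415 outside the flanks, 28.7% were below and 44.8% above, with a median of 0.31. The 17 of 19p had a median of -1.04 in U2OS and -1.41 in K562, and 15 were below 0 on all U2OS arrays. That flank was the dimmest in U2OS, with a summed signal of -2.05 against the rest on the log2 scale, and of -0.12 in K562. The part of dim signal in its U2OS values was not tested. The 9 of 7q had a median of -2.05 in U2OS, and -0.70 in K562, where ZNF138 read 0.38 and 0.13 against -2.35, -1.81, -2.27 and -2.14 in U2OS. The 6 above 0 (ZNF219, ZNF697, ZNF341, ZNF514, ZNF131 and ZNF451) lay in 6 different flanks. Members of this family share sequence, so signal of near-identical copies cannot be told apart.

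Gene families that were duplicated near centromeres were mostly late. Of 10 such genes, 6 were below 0 on all U2OS arrays and 1 above, and the median was -0.93 in U2OS and -0.97 in K562. Outside the flanks 4 of 8 were below and 3 above. ANKRD30A at 10p read -1.92, -2.29, -1.85 and -1.61 in U2OS and -2.68 and -1.03 in K562. POTEA at 8p, a member of a primate-specific ankyrin family, read -1.36, -1.42, -1.83 and -0.97, and -1.03 and -0.50. The exception was NBPF7 at 1p, with 1 position, at 2.04 ± 0.28 (SD, n = 4). ANKRD26P1 at 16q was at -0.88 ± 0.79 in U2OS and at 1.06 and 1.16 in K562. Of 9 olfactory receptor genes, 6 were below 0 on all U2OS arrays and none above, with a median of -2.002, and all 6 lay in 11q, where OR8U8 (29 positions) read -2.03, -2.50, -2.56 and -2.39. Outside the flanks 17 of 41 were below and 12 above.

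Between the cell lines, 145 of the 771 flank windows differed at a limma adjusted p under 0.05 and by at least 1 on the log2 scale. K562 was later in 70 windows (9.08%, against 11.6% of all windows) and earlier in 75 (9.73%, against 9.93%). These shares were near or below the background. In all 145 the ranges of the lines did not overlap, which a call of this size makes likely. In 96 the line means had opposite signs, 45 later and 51 earlier in K562. The share among called windows elsewhere is not given, and a difference of at least 1 makes opposite signs likely. Over all windows, called or not, opposite signs were about as common in the flanks (17.5%) as in the other autosomal windows (18.2%). The counts depended on the treatment of background and on 1 array. With normexp (offset 50) 45 windows were later and 18 earlier, without background correction 30 and 13, and with loess 20 and 29. Without the old-sorting K562 array 140 were later and 84 earlier, and without the new-sorting array 57 and 144. Scaling all arrays to the same spread gave 53 and 73. For these alternatives the shares over all windows are not given, so the counts show only how the calls depend on processing.

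**Figure D4:**
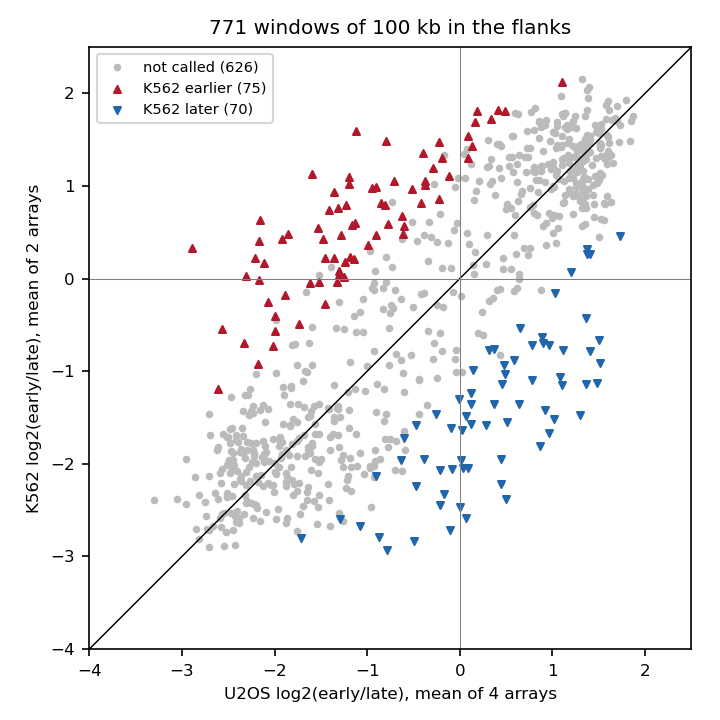
U2OS mean of 4 arrays (horizontal) against K562 mean of 2 arrays (vertical) of log2(early/late) in the 771 flank windows; triangles mark the 75 windows earlier and 70 later in K562, grey points the others, and the diagonal equal values. Most windows lie near the diagonal, and called windows lie off it on both sides.

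The called windows lay in 32 flanks and formed 65 runs of adjacent windows, 37 of them single windows and 17 of 3 or more. The sequences nearest the centre of 4 of the most changed windows are given for orientation, 5′ to 3′ as in the design; none holds a CpG.
7p, A_16_P38034061: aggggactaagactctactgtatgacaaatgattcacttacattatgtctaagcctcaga
18q, A_14_P100442: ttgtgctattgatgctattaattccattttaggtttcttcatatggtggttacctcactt
3p, A_16_P00757372: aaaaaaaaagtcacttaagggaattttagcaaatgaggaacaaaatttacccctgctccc
20p, A_14_P133269: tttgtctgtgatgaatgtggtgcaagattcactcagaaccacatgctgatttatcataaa
They lie at chr7:55057821-55057880, chr18:21444717-21444776, chr3:87759158-87759217 and chr20:23347662-23347721 (hg19). The sequence at 20p, which carries the gene name GZF1, read -2.38, -1.93, -1.89 and -1.37 in U2OS and 2.80 and 1.28 in K562.

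Among windows later in K562, the largest difference was at chr7:55000001-55100000, 2.51 Mb from the gap on 7p. K562 read -2.63 and -2.14 and U2OS 1.002, 1.31, 0.01 and -0.33, a difference of -2.88 ± 0.49 (SE; limma adjusted p = 0.00490). It was part of a run of 5 called windows that includes EGFR, the epidermal growth factor receptor gene. At chr18:21400001-21500000 (18q), in the laminin subunit gene LAMA3, K562 read -1.62 and -1.33 and U2OS 1.31, 1.02, 1.46 and 1.42 (-2.78 ± 0.26, SE, adjusted p = 0.000788). At chr8:49500001-49600000 (8q), K562 read -2.07 and -1.54 and U2OS 0.56, 1.39, 0.75 and 0.78 (-2.67 ± 0.32, SE, adjusted p = 0.00130). Absence of overlap between the lines was a condition for naming these windows.

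Among windows earlier in K562, both of the windows named at 3p belonged to a run of 7 from chr3:87600001-88300000. At chr3:87700001-87800000 K562 read 0.70 and -0.04 and U2OS -3.33, -2.84, -2.89 and -2.52 (3.22 ± 0.33, SE, limma adjusted p = 0.000887). At chr3:88000001-88100000, with HTR1F, a serotonin receptor gene, K562 read 0.65 and 0.16 and U2OS -2.14, -1.57, -2.54 and -2.41 (2.57 ± 0.34, SE, adjusted p = 0.00183). At chr20:23300001-23400000 (20p), with NAPB, GZF1 and NXT1, K562 read 1.66 and 0.60 and U2OS -1.72, -1.25, -1.60 and -1.80 (2.72 ± 0.35, SE, adjusted p = 0.00161). All 6 of these windows stayed past adjusted p 0.05 under each background, normalization, scale and spot setting that gave a value and without each U2OS array in turn. Without either K562 array the differences kept their sign. No value is given here for positions bright in both colours alone. The window at chr3:87700001-87800000, with 3 positions, also gave none when positions dim in both colours were left out. The sizes of the 6 differences did not hold as well: without background correction they were the smallest, from -1.55 to -1.20 for the later and from 1.18 to 1.34 for the earlier windows.

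Further long runs, chosen after their values were seen, show where the lines part. The longest, 8 windows at chr8:48000001-48800000 with PRKDC, the catalytic subunit of DNA-dependent protein kinase, was earlier in K562 by a mean of 1.70. Over its 53 positions K562 read 0.95 and 1.11 and U2OS -0.54, -0.28, -0.78 and -0.92. Later in K562 were 7 windows at chr6:55700001-56400000 with BMP5 and COL21A1, with a mean difference of -1.98, where K562 read -2.43 and -1.40 and U2OS lay between -0.10 and 0.22. Also later were 6 windows at chr4:54600001-55200000 with the receptor kinase gene PDGFRA, where K562 read -0.88 and -0.71 and U2OS 1.64, 1.63, 1.24 and 1.16. The summed signal of the flank 4q was 1.61 above the rest in U2OS and 0.20 above in K562 on the log2 scale. What part this had in the difference was not tested. A run of 5 windows at chr3:93500001-94000000 with PROS1, the gene of anticoagulant protein S, touches the 3q edge and was earlier in K562 by 1.503.

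Summed by flank, the ranges of the lines did not overlap in 15 flanks, with K562 higher in 8 and lower in 7. Counted the same way over windows, they did not overlap in 42.9% of flank windows and 42.6% of the other autosomal windows. K562 exceeded U2OS most at 3p (1.04), 3q (0.88, with overlapping ranges) and 10q (0.60). At 10q K562 read -0.43 and -0.38 and U2OS -0.90, -0.89, -1.05 and -1.20. K562 fell furthest below U2OS at the short-arm flank of chromosome 21 (-1.02), 2p (-0.93) and 6p (-0.64). At 2p K562 read -1.61 and -0.89 and U2OS -0.29, -0.70, -0.02 and -0.27, and at 6p -0.94 and -0.22 against -0.04, 0.06, 0.15 and 0.06. At 3p and 3q the new-sorting minus old-sorting difference was -1.32 and -1.68, and the new-sorting array alone stood at -1.86 and -2.22. Both flanks were also the dimmest in K562. Their summed signal against the rest was -0.70 and -0.94 at 3p and -0.64 and -1.17 at 3q (new, old sorting, log2 scale). The part of dim signal in the line difference was not tested.

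Automated U2OS arrays read later than manual ones in the flanks. By limma on the 4 U2OS arrays, 63 windows (8.17%, against 3.57% of all windows) were later and 5 (0.649%, against 1.75%) earlier with automated handling. In all 68 the handling groups did not overlap, which such a call makes likely. The later calls were concentrated, with 13 in 16q, 10 in 18q, 8 in 15q and 6 each in 7p and 13q. The number of calls moved with each array left out. Without the first automated array limma called 0 flank windows (115 at an unadjusted p under 0.05) and without the second 3, whereas without the first or the second manual array it called 177 and 219. In each of these fits the handling left with 1 array is assumed to vary like the other pair. The calls also depended on the treatment of background: with normexp (offset 50) 362 windows were later and 88 earlier, with loess 346 and 101, and without background correction 351 and 66. These alternative counts are of flank windows alone, and the shares over all windows under the same settings are not given. They therefore show dependence on processing and not a trait of the flanks. Both manual arrays shared a slide and the automated ones had slides of their own, so handling and slide cannot be told apart. The manual arrays were dimmer, with a median above negative controls of 46.7 and 44.4 units in green, against 195 and 131 on the automated arrays.

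**Figure D5:**
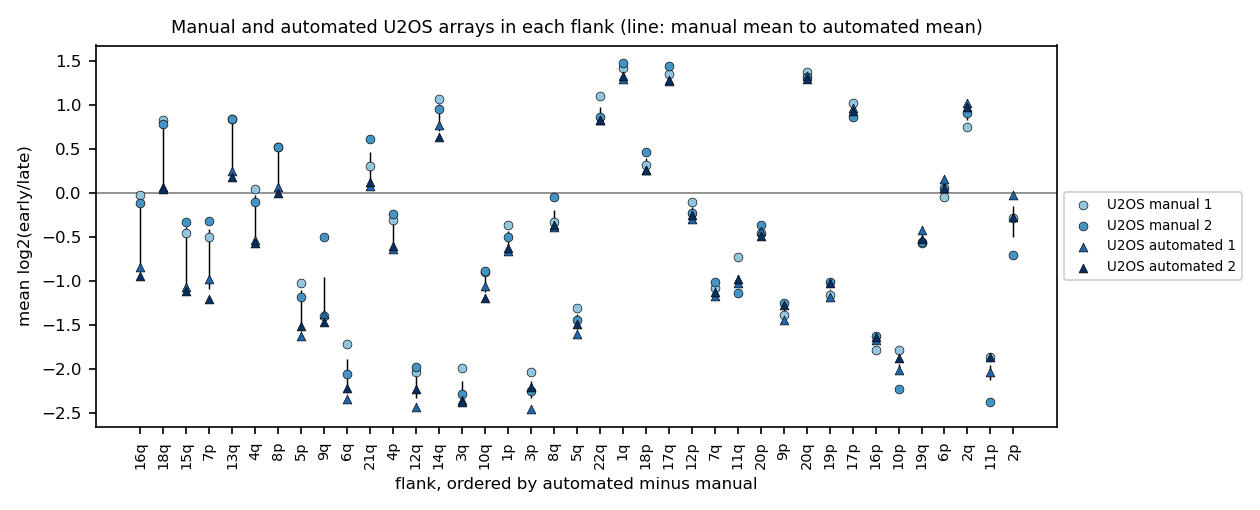
Mean log2(early/late) (vertical axis) of each flank on the 4 U2OS arrays, ordered by automated minus manual (horizontal axis); a line joins the manual mean to the automated mean. Automated triangles lie below manual circles at the left end, with a difference of -0.83 at 16q, and above them at 2p on the right.

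At 16q the manual arrays read -0.02 and -0.11 and the automated ones -0.85 and -0.94. At 18q they read 0.83 and 0.79 against 0.07 and 0.04, and at 13q 0.84 and 0.84 against 0.25 and 0.18. In 27 flanks the handling groups did not overlap, with the automated arrays lower in 24 and higher in 3. Counted the same way over windows, they did not overlap in 61.1% of flank windows and 56.8% of the other autosomal windows, with the automated arrays lower in 45.0% and 35.3%. The largest window difference was at chr16:47200001-47300000, in ITFG1, with -0.23 and -0.67 after manual and -2.43 and -2.22 after automated handling (-1.88 ± 0.25, SE, limma adjusted p = 0.0204). Next were chr6:64200001-64300000 at 6q, with the phosphatase gene PTP4A1, and chr8:40400001-40500000 at 8p, in the zinc finger gene ZMAT4, each at -1.77 (adjusted p = 0.0251 and 0.0204).

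The reverse was largest at chr16:33900001-34000000 on 16p, a window with 3 positions. There the manual arrays read -1.50 and -1.05 and the automated ones 0.35 and -0.19 (1.36 ± 0.27, SE, limma adjusted p = 0.0321). At chr2:95900001-96000000 (2q), with KCNIP3 and PROM2, the difference was 1.23 (adjusted p = 0.0287), and at chr16:49300001-49400000 (16q) 1.11 (adjusted p = 0.0423). Each of these 6 windows lost its call without at least 1 of the automated arrays, while the differences kept their sign and, for the 3 later windows, stayed between -1.98 and -1.75. The last of them also lost it with normexp (offset 50), with no background correction and with loess.

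The K562 sorting methods, with 1 array each and no test, differed mainly in range. The new-sorting array was later than the old by at least 1 in 204 flank windows (26.5%, against 25.7% of all windows) and earlier in 12 (1.56%, against 1.97%), which is near the background. The SD of window values was 1.84 after new and 1.20 after old sorting. All 24 flanks below 0 on both arrays were lower on the new one, and 9 of the 11 above 0 on both were higher on it. Scaled to the same spread, 80 windows were later and 3 earlier, and centred on the mean position, 136 and 63, with no share over all windows given for either. Of the flank positions, 45.3% were well above background in green on the old-sorting array and 87.7% on the new one, and in red 76.7% and 62.7%.

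The 2 windows that were most shifted toward late on the new array were chr3:96100001-96200000 (-3.43 against 0.52) and chr6:62300001-62400000 with KHDRBS2, an RNA-binding protein gene (-3.69 against -0.01). U2OS was late at both, from -3.01 to -2.49 and from -2.94 to -2.26. Shifted toward early were chr4:53500001-53600000 with USP46, a ubiquitin protease gene (0.62 against -0.91), and chr17:21900001-22000000 with 3 positions (0.59 against -0.80). Without background correction the latter difference was -0.07.

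The array labelled 44k had 8.82% of its non-control spots well above background in red and a ratio of exactly 0 at 14.5%. Measured at 1573 flank positions, it gave a median of -0.06 in the flanks and 0.02 elsewhere, and -0.53 over its 99 innermost positions. Its inner 1 Mb was at -0.38 and the stretch from 2 to 3 Mb at 0.19. Over the 37 flanks with at least 5 positions, its means had an r of 0.97 with the new-sorting and 0.90 with the old-sorting array, as a description.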

How the data were processed

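Each array compared early with late S-phase DNA of the same cells in 2 colours. The deposited values are the authors' log10 ratios of late (red, Cy5) over early (green, Cy3) processed signals, and the deposited intensities behind them were background-subtracted, detrended and dye-normalized, per the file headers. The headers give Agilent Feature Extraction 11.5.1.1 and build hg19, and the submitters' processing notes name version 9.1. No dyes were swapped, so dye and S-phase fraction cannot be told apart.

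The sign was turned to log2(early/late). Control spots, spots with outlier or manual marks and ratios of exactly 0, a placeholder, were left out. Each array was centred on its median position over chromosomes 1 to 22 and X. Positions were averaged in 100-kb windows with at least 3 positions measured on all 6 arrays, and a window belonged to the flanks when more than 50% of its positions did. Windows were tested with limma 3.58.1 in R 4.3.3, with the line as the factor on 6 arrays, or the handling on the 4 U2OS arrays. Adjusted p-values are Benjamini-Hochberg over all windows, and calls between lines also needed a difference of at least 1. The fits were tested on simulated data. The replicate numbers did not pair the U2OS arrays: over 2 pairs, arrays with the same number deviated from their group means with a correlation of -0.0172. The lines shared no slide, so line and slide cannot be told apart.

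The members, gene lists and tests were chosen with earlier results of these data known. Named windows were the 3 per direction with the largest difference among calls without overlap, 2 per direction for the sorting methods, with adjacent windows counted once; named flanks were the 3 latest and earliest in U2OS, the 3 per direction most different between lines, and those of chromosomes 13, 14, 15, 21 and 22. Other genes and flanks in the text were chosen after their values were seen. Gene lists were matched by the start of the symbol on the array. The alternatives were background correction, loess, scale, centring, spot filters, window size, position minimum, flank width, and leaving out each array. Depth has no counterpart on arrays, and their number limits the precision.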

Additional observations from a re-analysis of the deposited data

Results flagged for a closer look

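In 3 flanks 1 of the 4 U2OS arrays stood apart from the others, by a gap over range above Dixon's critical value for 4 arrays. The values were 0.907 at 9q, which has 6 positions and where the second manual array was high at -0.51, 0.884 at 22q, where the first manual array was high at 1.099, and 0.831 at 8q, where the second manual array was high at -0.05. These were 3 of 41 such tests, and chance gives about 1 in 20.

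The 6 named windows that differed between the lines had K562 minus U2OS values of -2.88 at chr7:55000001-55100000, -2.78 at chr18:21400001-21500000 and -2.67 at chr8:49500001-49600000, and of 3.22 at chr3:87700001-87800000, 2.72 at chr20:23300001-23400000 and 2.57 at chr3:88000001-88100000. Windows were named only where the lines did not overlap.

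The array also carries 48 positions on unlocalised contigs, which no comparison used. In green a median of 100% of them over the 6 arrays were well above background, and in red 89.6%, against at most 0.454% of negative control spots on any array. Their median log2(early/late) ran from 0.01 to 0.76, and they were brighter than the other autosomal positions by 1.07 to 1.76 on the log2 scale.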

How the results depend on the processing

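Over the results and alternatives run, 159 of 193 summary values moved by less than the spread between arrays (counts: by less than 1.5 times) and 34 by more. None changed sign, which counts and shares of windows cannot do. The balance of later and earlier calls between the lines did move, as given above. Among single windows, the sorting difference at chr17:21900001-22000000 turned from 1.39 to -0.07 without background correction. The flank-minus-rest difference of medians was -1.10, -0.56 and -0.46 in U2OS for flanks of 1 Mb, 2 Mb and without the chromosomes 13, 14, 15, 21 and 22, and smaller than the reported -0.24 with normexp (offset 50) at -0.15, without background correction at -0.12 and for positions bright in both colours at -0.11. In K562 it was -0.74, -0.39 and -0.38 for these, -0.048 for flanks of 5 Mb and -0.052 without background correction. The inner-to-outer difference of -1.18 became -0.63 with normexp (offset 50), -0.51 without background correction, -0.65 with loess, -0.82 for positions bright in both colours and -0.78 with flanks counted equally, the last 2 chosen after seeing the data. Early windows in U2OS were 22.7% in flanks of 1 Mb, and in K562 22.3% with normexp (offset 50) and 15.3% without background correction. Windows that differed between the lines, 18.8%, became 7.90%, 5.40% and 6.15% with normexp (offset 50), without background correction and with loess. Windows that differed by handling, 8.82%, became 56.5%, 52.3% and 56.1% with these, 26.5% with normexp (offset 0), 4.59% and 15.1% in windows of 50 and 250 kb and 14.2% in flanks of 1 Mb. The replicate block gave 13.5% (104 windows, 88 later and 16 earlier with automated handling), although the numbers only name the arrays. Windows that differed by sorting, 28.0%, became 17.9% without background correction and 10.8% at equal spread. The cause of these moves was not tested. All these percentages are of flank windows, and those over all windows under the alternatives are not given.

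Leaving out each array in turn gave differences from the rest between -0.25 and -0.09 in K562 and between -0.29 and -0.19 in U2OS, and an inner-to-outer difference between -1.31 and -1.12. Windows that differed between the lines ranged from 13.1% to 29.1%, and by handling from 0% to 28.4%. In U2OS 45.0% to 49.5% of windows were late and 33.5% to 37.2% early, and in K562 33.6% to 44.6% late and 29.2% to 35.5% early. The slide as a random block could not be fitted, since only 1 slide held more than 1 array. Averaging the arrays of that slide, chosen after seeing the data, called 134 windows between the lines. Signal over background limits the array labelled 44k in red most, and among the others the manual arrays and, in green, the old-sorting array.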

Other observations

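Further runs of adjacent windows that differed between the lines, each chosen after its values were seen, lay in other flanks. At chr5:52000001-52500000 (5q), with the integrin genes ITGA1 and ITGA2, 5 windows were later in K562. Over their 33 positions K562 read -2.28 and -1.72 and U2OS 0.30, 0.19, 0.19 and 0.07. At chr18:13400001-13900000 (18p), with the melanocortin receptor genes MC2R and MC5R, 5 windows were later in K562, which read -1.82 and -1.49, against -0.16, 0.03, 0.22 and 0.08 in U2OS. At chr18:19700001-20100000 (18q), with GATA6, a transcription factor gene of heart and endoderm, K562 read -1.01 and -0.83 and U2OS 1.19, 1.05, 0.21 and 0.69.

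Zinc finger clusters were among the runs earlier in K562. At chr7:64100001-64500000 (7q), with ZNF107, ZNF138, ZNF273 and ZNF117, K562 read 0.27 and 0.16 and U2OS -1.74, -1.48, -1.93 and -1.92. At chr10:44000001-44400000 (10q), with ZNF239, ZNF32 and ZNF485, K562 read 0.47 and 0.33 and U2OS -1.34, -1.27, -1.69 and -1.79. The 17 zinc finger genes of 19p were late in both lines by their medians, as given above. At 20p, a run of 5 windows at chr20:23200001-23700000 takes in the cystatin genes CST3, CST8 and CST9L, which encode protease inhibitors, and read 1.26 and 0.39 in K562 and -1.18, -1.01, -1.51 and -1.41 in U2OS.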
